A study of Homo sapiens with 5 samples.

Results

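The HOX genes are 39 of the 20001 genes in the table, 11 in the HOXA cluster, 10 in HOXB, 9 in HOXC and 9 in HOXD. They were chosen by a fixed list of Ensembl identifiers and not by their measured values, and all 39 identifiers were found. Nascent RNA was measured by PRO-seq, a run-on assay in which polymerases already engaged on a gene add biotin-labelled nucleotides, so that counts report transcription in progress. The cells were HEK293T, a line from human embryonic kidney with SV40 large T antigen. They were monoclonal and carried a landing pad, an engineered place in the genome for inserting DNA, with either the PGK promoter (from a glycolysis gene, 2 libraries) or the CAG promoter (a strong synthetic one, 3 libraries). No treatment is named for either group, and both had the same medium. The study combined these data with RNA-seq to derive RNA stability, and the RNA-seq was not used here.

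Cells with 1 promoter are called a line here. The number of clones per line is not stated in the labels, and promoter and clone cannot be told apart. It is not stated either that replicates came from separate cultures, and p-values therefore reflect only the spread among these libraries, which may be technical. Library totals ran from 3712105 counts in PGK replicate 2 to 5864157 in CAG replicate 3. The HOX genes took 0.0966% to 0.110% of counts in the PGK libraries and 0.131% to 0.141% in the CAG libraries. Levels are given as CPM, that is, as counts scaled to a common library size by TMM. Which stretch of each gene was counted is not given in the sources used here, so levels of different HOX genes are not ranked against each other, and the strand setting is not given either. The HOX clusters hold antisense transcripts, and reads of a gene and its antisense partner could not be told apart. Markers of HEK293T and of other cell types were not examined, because the table gives no gene names.

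HOX proteins are transcription factors that bind DNA through a homeodomain and set the identity of body segments along the head-to-tail axis. In each cluster the genes lie in the order of the body regions they pattern, with the low-numbered (anterior) paralogs at the 3′ end and the high-numbered (posterior) paralogs at the 5′ end. In development the anterior end opens first, Polycomb complexes keep the rest silent, and paralogs 11 take part in forming the kidney. Here groups 1 to 3 are called anterior, 4 to 8 central and 9 to 13 posterior.

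The identifiers were named in the order of the list, by cluster and paralog number, because neither the count table nor the reference tables pair Ensembl identifiers with symbols. With these names the members formed 4 runs of 12, 11, 10 and 9 rows, in which 1, 1, 1 and 0 rows belonged to other genes. The number of members per run equalled the number of RefSeq genes per cluster. Row order matched the RefSeq order of start sites at all 11 ranks in HOXA and all 10 in HOXB, at 4 of 9 in HOXC and at 7 of 9 in HOXD. The other ranks concern HOXC4, HOXC5, HOXC6, HOXC8, HOXC9, HOXD3 and HOXD4, of which all but HOXC8 and HOXC9 overlap another HOX gene in RefSeq.

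The 30 bases that end 7 bases before the RefSeq start are shown for 6 genes (RefSeq, GRCh38.p14, 5′ to 3′, with a TATA in capitals where the letters occur). HOXC4 and HOXC5 are shown because RefSeq gives them the same start. The 4 posterior HOXD neighbours are shown because 1 of them, HOXD12, was near 0 between transcribed genes.
HOXC4, chr12:54016852-54016881, plus strand: aactttttattgtggtttgtccgttccgag
HOXC5, chr12:54016852-54016881, plus strand: aactttttattgtggtttgtccgttccgag
HOXD10, chr2:176116742-176116771, plus strand: ggcagaggcatccacaattacacggggaat
HOXD11, chr2:176107244-176107273, plus strand: ggtggggatttttgcttagttgatcctggc
HOXD12, chr2:176099759-176099788, plus strand: aactaaatactgttgcgagcgcagccgaag
HOXD13, chr2:176092685-176092714, plus strand: cttcgttttTATAaacgtcccgcgatgagc
Among these 6 windows the letters TATA occur only in that of HOXD13. Outside these 6 they also occur in the windows of HOXA3, HOXA6 and HOXD1, and HOXD1 had few counts. HOXD10 and HOXD11 were transcribed and lack them. Whether the letters bear on the counts was not tested. A match is a description of letters and not a mapped site.

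Of the 39 HOX genes, 29 had a mean of at least 1 CPM in the PGK line and the same number in the CAG line. That is 74.4% of the members, beside 68.1% of all 20001 genes in the PGK line and 69.9% in the CAG line. The HOX genes were thus transcribed about as often as genes in general. All 4 clusters were transcribed: genes at 1 CPM or more in both lines numbered 10 of 11 in HOXA, 8 of 10 in HOXB, 4 of 9 in HOXC and 7 of 9 in HOXD. The most posterior gene of every cluster was among them. At a threshold of 5 CPM, 27 genes passed in each line.

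**Figure D1:**
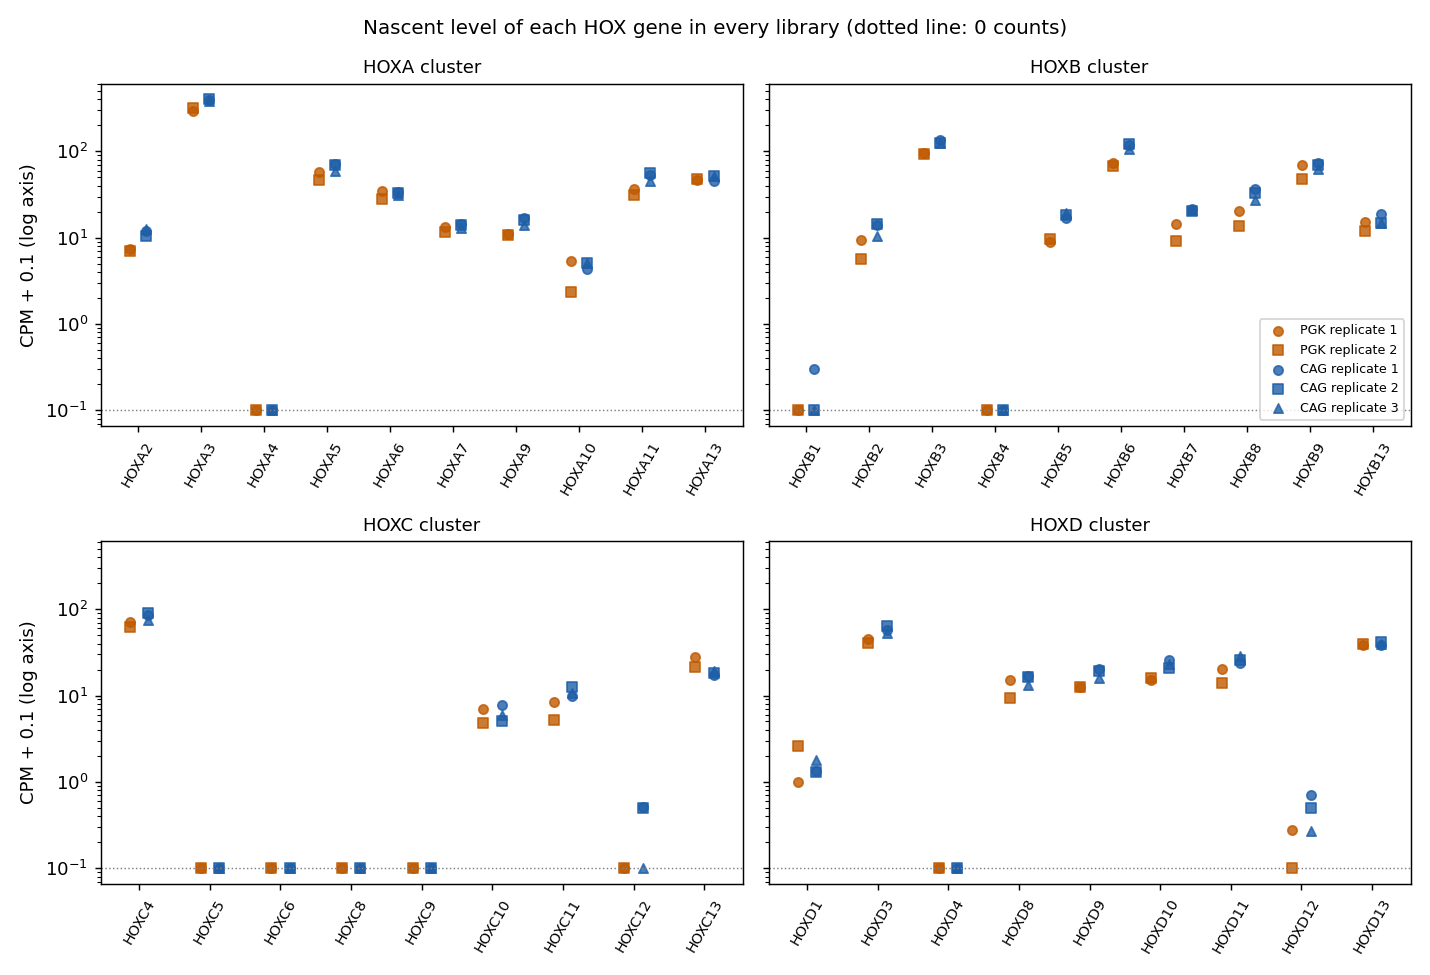
CPM plus 0.1 on a log axis for each of 38 HOX genes, in 4 panels by cluster and in paralog order, with 1 point per library. The 7 genes without a count lie on the dotted line, and the posterior genes HOXA13, HOXB13, HOXC13 and HOXD13 lie well above 1 CPM in both lines; levels of different genes are not corrected for length.

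The genes without a count lay inside transcribed clusters. HOXA4 (ENSG00000197576), HOXB4 (ENSG00000182742), HOXD4 (ENSG00000170166), HOXC5 (ENSG00000172789), HOXC6 (ENSG00000197757), HOXC8 (ENSG00000037965) and HOXC9 (ENSG00000180806) had 0 counts in all 5 libraries, as had 13.6% of all genes. Of these 7, 3 are paralogs of group 4, the genes just behind group 3 in the series of body segments. A count of 0 allows up to 0.326 CPM in the PGK line and up to 0.189 CPM in the CAG line (3 counts over a line, counting error only). In RefSeq 5 of the 7 overlap another HOX gene: HOXA4 lies within HOXA3, HOXB4 within HOXB3, HOXD4 overlaps HOXD3, and HOXC5 and HOXC6 lie within HOXC4, with the same start. HOXC8 and HOXC9 overlap no HOX gene there, and HOXA5 and HOXA6 lie within HOXA3 and were counted. These overlaps are those of GRCh38.p14, whereas the submitters name hg19, and the annotation they counted on is not given. In row order HOXC6 came before HOXC9 and HOXC8, but by RefSeq start it comes after them. Overlaps in the annotation used may therefore differ, also for HOXC8 and HOXC9. Whether reads that fall in more than 1 gene were dropped was not tested, so these 0 counts do not show that the genes were silent. The counts of HOXA3, HOXA5, HOXA6, HOXB3, HOXC4 and HOXD3, which overlap other HOX genes, are uncertain for the same reason.

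Another 3 genes were nearly without counts although RefSeq shows no overlap with another HOX gene. HOXB1 (ENSG00000120094), which acts in the hindbrain, had 1 count in CAG replicate 1 and 0 in the other libraries. HOXC12 (ENSG00000123407) had 0 and 0 counts in the PGK replicates against 2, 2 and 0 in the CAG replicates, and HOXD12 (ENSG00000170178) had 1 and 0 counts in the PGK replicates against 3, 2 and 1 in the CAG replicates. Both paralogs of group 12 were thus under 1 CPM in every library, between neighbours that were transcribed: HOXC11 and HOXC13 on the one hand, HOXD11 and HOXD13 on the other. HOXD1 (ENSG00000128645) was scarce too, with 5 and 9 counts in the PGK replicates against 6, 6 and 10 in the CAG replicates, and was not tested. No fold change is given for these 4 genes.

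The filter on low counts kept 28 of the 39 genes for the comparison of the lines. The edgeR quasi-likelihood test with Benjamini-Hochberg adjustment over 13400 genes called 17 of them higher and 1 lower in the CAG line at an adjusted p under 0.05, and 10 did not pass. These are 64.3% of the 28 tested HOX genes, beside 43.4% of all tested genes. The share called higher was 60.7%, beside 22.7% of all tested genes, and the share called lower was 3.57%, beside 20.7%. The median log2 fold change was 0.40 in the 28 HOX genes and -0.0046 in all tested genes. None of the 28 reached 2-fold, which 5.01% of all tested genes did as rises and 1.94% as falls. That count of 0 rests on PGK replicate 1. Without it, PGK replicate 2, the library with the lowest total, is the only PGK library. Then 5 genes passed 2-fold, namely HOXB8 (log2 fold change 1.21), HOXB7 (1.20), HOXB2 (1.17), HOXC11 (1.11) and HOXA10 (1.06, not called with all libraries). HOXB5 lay at the limit and passed it without PGK replicate 2 (1.03), without CAG replicate 1 (1.04) and with upper-quartile factors (1.01), as did HOXB8 with the replicate number as a block (1.01). How many of all tested genes reached 2-fold in these settings was not counted, so no share stands beside these genes. The lines did not overlap for 18 of the 28 genes (64.3%), beside 61.2% of all tested genes. The DESeq2 test called 12 of the 28, all higher, which is 42.9% beside 30.3% of all genes it tested.

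**Figure D2:**
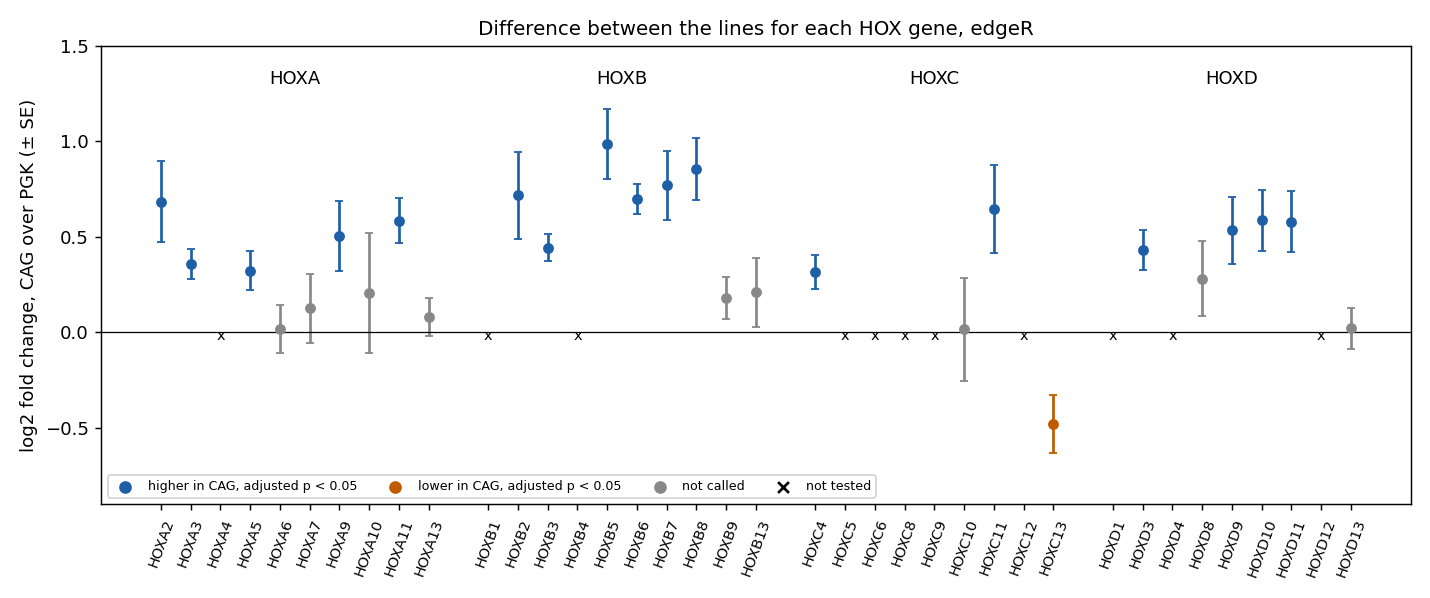
The log2 fold change of CAG over PGK from edgeR, with its standard error, for each of 27 tested HOX genes in paralog order within its cluster. The 6 HOXB genes from HOXB2 to HOXB8 that were tested are all higher in the CAG line, HOXC13 is the one gene called lower, and crosses mark the 11 genes that were not tested.

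HOXB had the highest median rise. All 6 tested anterior and central genes rose in the CAG line, and the 2 posterior genes did not pass the test. The share called higher was 75% of the 8 tested HOXB genes, beside 22.7% of all tested genes. HOXB5 (ENSG00000120075), a central gene with roles in gut innervation and lung, stood at 8.87 and 9.53 CPM in the PGK libraries and 16.7, 18.4 and 19.2 CPM in the CAG libraries. All 3 CAG libraries lay above both PGK libraries. The fitted rise between the lines was 1.98-fold (log2 fold change 0.99 ± 0.18 (SE), adjusted p = 9.08e-05 by edgeR), the largest change of any tested HOX gene. HOXB6 (ENSG00000108511), its 5′ neighbour, stood at 72.9 and 68.4 CPM in the PGK libraries and 118, 120.2 and 108 CPM in the CAG libraries. The gap was wide against the spread within a line, and HOXB6 had the lowest adjusted p of the HOX genes (log2 fold change 0.70 ± 0.079 (SE), adjusted p = 9.91e-08). HOXB8 (ENSG00000120068), known for its part in blood cell and spinal cord development, stood at 20.4 and 13.7 CPM in the PGK libraries and 36.6, 32.8 and 27.1 CPM in the CAG libraries. The lines did not overlap, although PGK replicate 2 lay well under PGK replicate 1, and the rise was 1.81-fold (log2 fold change 0.86 ± 0.16 (SE), adjusted p = 1.25e-04). The log2 fold change of HOXB8 was 1.21 without PGK replicate 1 and 0.65 without PGK replicate 2.

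HOXB7 (ENSG00000260027) stood at 14.4 and 8.97 CPM in the PGK libraries and 21.2, 20.6 and 20.6 CPM in the CAG libraries, with the CAG libraries close together and the PGK libraries apart (log2 fold change 0.77 ± 0.18 (SE), adjusted p = 0.00102 by edgeR). Without PGK replicate 1 its log2 fold change was 1.20, and without PGK replicate 2 it was 0.53. HOXB2 (ENSG00000173917), an anterior gene that acts in the hindbrain, had 7.41 ± 2.55 CPM (SD, n = 2) in PGK against 12.9 ± 2.17 CPM (SD, n = 3) in CAG. It passed the edgeR test (log2 fold change 0.72 ± 0.23 (SE), adjusted p = 0.0124), but not without PGK replicate 2 (0.47, adjusted p = 0.0978) or CAG replicate 2 (adjusted p = 0.0508), and without PGK replicate 1 its log2 fold change was 1.17. HOXB3 (ENSG00000120093), with a long gene body that holds HOXB4 in RefSeq, stood at 96.6 and 93.1 CPM in the PGK libraries and 136, 127 and 125 CPM in the CAG libraries. Its libraries agreed closely within each line, and the rise was 1.36-fold (log2 fold change 0.44 ± 0.073 (SE), adjusted p = 1.85e-05).

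At the posterior end of HOXB the lines overlapped. HOXB9 (ENSG00000170689) stood at 68.97 and 47.9 CPM in the PGK libraries and 73.4, 68.6 and 62.3 CPM in the CAG libraries. PGK replicate 1 lay within the CAG range and PGK replicate 2 under it, and the gene did not pass the edgeR test (log2 fold change 0.18 ± 0.11 (SE), adjusted p = 0.196). Without PGK replicate 1 it was called higher (0.49, adjusted p = 5.87e-04), and without PGK replicate 2 its value was -0.022. HOXB13 (ENSG00000159184), a gene of the prostate and hindgut that lies apart from the rest of the cluster, stood at 15.2 and 11.8 CPM in the PGK libraries and 18.7, 14.6 and 14.8 CPM in the CAG libraries (log2 fold change 0.21 ± 0.18 (SE), adjusted p = 0.371). The row between them, which is no HOX gene, had 1 to 3 counts per library.

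In HOXA 5 of 10 tested genes rose and none fell, beside 22.7% of all tested genes called higher and 20.7% called lower. HOXA11 (ENSG00000005073), one of the paralogs that act in kidney and limb formation, stood at 36.7 and 30.8 CPM in the PGK libraries and 53.7, 55.97 and 45.1 CPM in the CAG libraries. Every CAG library was above both PGK libraries, and the fitted rise between the lines was 1.4996-fold (log2 fold change 0.58 ± 0.12 (SE), adjusted p = 2.16e-04 by edgeR). HOXA3 (ENSG00000105997), which patterns the pharyngeal arches, stood at 292 and 322 CPM in the PGK libraries and 389.9, 402 and 388 CPM in the CAG libraries. That is a rise of 1.28-fold with a small error (log2 fold change 0.36 ± 0.079 (SE), adjusted p = 5.55e-04). HOXA2 (ENSG00000105996), the selector gene of the branchial arch behind the jaw, stood at 7.27 and 7.01 CPM in the PGK libraries and 11.8, 10.3 and 12.4 CPM in the CAG libraries (log2 fold change 0.69 ± 0.21 (SE), adjusted p = 0.01103). It was called by edgeR but not by DESeq2 (adjusted p = 0.0755).

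HOXA5 (ENSG00000106004), which acts in lung development, stood at 57.4 and 45.98 CPM in the PGK libraries and 70.99, 68.6 and 58.5 CPM in the CAG libraries. The highest PGK library and the lowest CAG library nearly met, and the call (log2 fold change 0.32 ± 0.10 (SE), adjusted p = 0.0133 by edgeR) was lost by DESeq2 (adjusted p = 0.0591), without PGK replicate 2 (0.20, adjusted p = 0.131) and without CAG replicate 1 (adjusted p = 0.0685). Without PGK replicate 1 its log2 fold change was 0.51. HOXA9 (ENSG00000078399), known from its activation in acute leukaemia, stood at 10.99 and 10.7 CPM in the PGK libraries and 16.7, 15.8 and 13.95 CPM in the CAG libraries (log2 fold change 0.51 ± 0.18 (SE), adjusted p = 0.0271). Leaving out any library except CAG replicate 3 ended its call, with adjusted p from 0.0534 to 0.0965, as did the DESeq2 test (adjusted p = 0.125).

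The row between HOXA9 and HOXA10 in the table, ENSG00000257184, is not on the HOX list. It stood at 58.5 ± 3.80 CPM (SD, n = 2) in PGK against 93.2 ± 4.83 CPM (SD, n = 3) in CAG, with an edgeR log2 fold change of 0.66 ± 0.085 (SE) and an adjusted p of 6.22e-07. RefSeq lists a read-through gene of HOXA10 and HOXA9; whether this row is that gene, and whether it shares reads with them, was not tested. The counts of HOXA9 and HOXA10 are uncertain for that reason.

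The following HOXA genes did not pass the edgeR test. HOXA13 (ENSG00000106031), which shapes digits and the genital tract, stood at 46.5 and 47.4 CPM in the PGK libraries and 45.4, 51.4 and 51.6 CPM in the CAG libraries (log2 fold change 0.080 ± 0.10 (SE), adjusted p = 0.548). HOXA6 (ENSG00000106006) stood at 34.9 and 27.8 CPM in the PGK libraries and 33.4, 32.8 and 30.8 CPM in the CAG libraries, with overlapping lines. Its value was log2 fold change 0.017 ± 0.13 (SE), adjusted p = 0.929 by edgeR. The values of HOXA7 (ENSG00000122592) were 12.4 ± 1.27 CPM (SD, n = 2) in PGK against 13.7 ± 0.705 CPM (SD, n = 3) in CAG (log2 fold change 0.13 ± 0.18). HOXA10 (ENSG00000253293), a gene of the uterus and of leukaemia, had only 8 to 30 counts per library and a log2 fold change of 0.21 ± 0.32.

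In HOXD 4 of 6 tested genes rose (66.7%), 3 of them posterior, while 22.7% of all tested genes were called higher. HOXD10 (ENSG00000128710), which acts in limbs and the spinal cord, stood at 15.1 and 15.7 CPM in the PGK libraries and 25.6, 20.6 and 22.97 CPM in the CAG libraries. The PGK libraries lay close together and every CAG library above them (log2 fold change 0.59 ± 0.16 (SE), adjusted p = 0.003798 by edgeR). HOXD11 (ENSG00000128713), a partner of HOXA11 in kidney and forearm formation, stood at 20.04 and 14.02 CPM in the PGK libraries and 23.6, 25.9 and 28.9 CPM in the CAG libraries. The PGK libraries were apart (log2 fold change 0.58 ± 0.16 (SE), adjusted p = 0.00449). The log2 fold change was 0.90 without PGK replicate 1 and 0.39 without PGK replicate 2. HOXD9 (ENSG00000128709) stood at 12.6 and 12.3 CPM in the PGK libraries and 19.9, 18.98 and 15.7 CPM in the CAG libraries (log2 fold change 0.53 ± 0.18 (SE), adjusted p = 0.0154). Its call was lost by DESeq2 (adjusted p = 0.0794), without PGK replicate 1 (adjusted p = 0.0517) and without CAG replicate 1 (adjusted p = 0.0716). HOXD3 (ENSG00000128652), the anterior gene whose RefSeq body overlaps HOXD4, stood at 44.7 and 40.4 CPM in the PGK libraries and 57.4, 63.5 and 53.1 CPM in the CAG libraries (1.35-fold, log2 fold change 0.43 ± 0.10 (SE), adjusted p = 0.001301).

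HOXD13 (ENSG00000128714), the digit gene at the posterior end of HOXD, did not differ beyond its spread: it stood at 38.8 and 39.5 CPM in the PGK libraries and 38.2, 41.5 and 39.5 CPM in the CAG libraries (log2 fold change 0.023 ± 0.11 (SE), adjusted p = 0.886 by edgeR). The nearby gene HOXD8 (ENSG00000175879) stood at 14.9 and 9.25 CPM in the PGK libraries and 16.7, 16.4 and 13.1 CPM in the CAG libraries (log2 fold change 0.28 ± 0.20 (SE), adjusted p = 0.26005). It was called higher without PGK replicate 1 (0.71, adjusted p = 0.0204), and without PGK replicate 2 its log2 fold change was 0.039 (adjusted p = 0.896).

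HOXC held the fewest counted genes and the single fall. HOXC13 (ENSG00000123364), which acts in hair and nail formation and lies at the posterior end, stood at 28.2 and 21.3 CPM in the PGK libraries and 17.1, 18.2 and 19.1 CPM in the CAG libraries. Both PGK libraries lay above all CAG libraries, and the level was 1.39-fold higher in the PGK line (log2 fold change -0.48 ± 0.15 (SE), adjusted p = 0.0122 by edgeR). The call was lost by DESeq2 (adjusted p = 0.0800), without CAG replicate 1 (adjusted p = 0.0521) and without PGK replicate 1, where the value was -0.24 (adjusted p = 0.342). HOXC4 (ENSG00000198353), which RefSeq starts together with HOXC5 and HOXC6, stood at 70.2 and 62.2 CPM in the PGK libraries and 86.04, 89.2 and 74.9 CPM in the CAG libraries, a rise of 1.24-fold (log2 fold change 0.32 ± 0.090 (SE), adjusted p = 0.00603). HOXC11 (ENSG00000123388) stood at 8.33 and 5.05 CPM in the PGK libraries and 9.76, 12.5 and 10.7 CPM in the CAG libraries (log2 fold change 0.65 ± 0.23 (SE), adjusted p = 0.02602). Its call was lost by DESeq2 (adjusted p = 0.102), without PGK replicate 2 (0.40, adjusted p = 0.193) and without CAG replicate 2 (adjusted p = 0.0958), and without PGK replicate 1 its value was 1.11. HOXC10 (ENSG00000180818) had 17 to 39 counts per library and a log2 fold change of 0.017 ± 0.27. The non-member row between HOXC10 and HOXC6 had 1 to 10 counts per library.

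Paralog groups, which pattern the same body region from different clusters, can be read across the clusters. All 3 members of group 11 were tested and rose: HOXA11, HOXC11 and HOXD11. All 3 members of group 3 rose too, as did both of group 2 and both tested members of group 5. In RefSeq each member of group 3 overlaps a gene of group 4 without counts, and HOXA3 also holds HOXA5. How shared reads were assigned was not tested, so the rises of HOXA3 and HOXA5 may not be separate. Of the 4 members of group 13, none rose, with log2 fold changes of 0.080 in HOXA13, 0.21 in HOXB13, -0.48 in HOXC13 and 0.023 in HOXD13. Groups 6 to 10 were split: in groups 6, 7 and 8 the count was 1 of 2 tested genes each, in group 9 it was 2 of 3 and in group 10 it was 1 of 3. The share over all tested genes was 22.7%. The calls of HOXC11, HOXA2, HOXB2 and HOXA5, on which the full groups rest, were each lost under at least 1 alternative. The difference between groups was not tested.

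The summed level of a cluster gives the weight of its counted genes, in which genes with many counts count most. For HOXA the sum was 517 and 519.5 CPM in the PGK libraries and 653, 670.2 and 631 CPM in the CAG libraries, and for HOXB it was 307 and 259 CPM in the PGK libraries and 435, 416 and 387 CPM in the CAG libraries. In both clusters every CAG library lay above both PGK libraries, and the ratios of the line means were 1.26 and 1.46. For HOXD the sum was 140.4 ± 9.49 CPM in the PGK line (SD, n = 2) against 182 ± 6.74 CPM in the CAG line (SD, n = 3), a ratio of 1.298, again without overlap. For HOXC the sum was 114 and 93.4 CPM in the PGK libraries and 121, 125 and 110.4 CPM in the CAG libraries. There CAG replicate 3 lay under PGK replicate 1, and the ratio was 1.15. On the log2 scale it was 0.20, with 0.067 without PGK replicate 2 and 0.34 without PGK replicate 1. HOXA3 alone made up most of the HOXA sum, so the HOXA ratio mainly follows that gene. Its share is not corrected for the stretch counted and does not rank its transcription against that of other genes. No test was made of these sums.

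**Figure D3:**
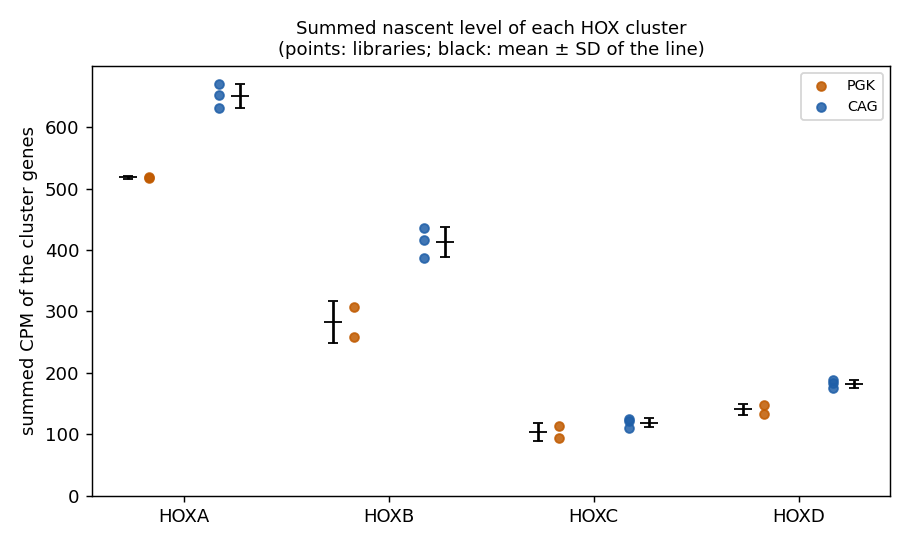
Summed CPM of the HOX genes of each cluster, with 1 point per library and black bars for the mean and SD of each line (2 PGK and 3 CAG libraries). The CAG libraries lie above the PGK libraries in HOXA, HOXB and HOXD, and the lines overlap in HOXC.

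The rows around the clusters had median changes near 0. The 20 tested rows before and the 20 after each cluster were read in the order of the table's rows. Around HOXA their median log2 fold change was -0.075, beside 0.26 in the 10 tested HOXA genes, and all 10 lay above that median. Around HOXB it was -0.097, beside 0.71 in the 8 tested HOXB genes, which all lay above it. Around HOXD it was 0.032, beside 0.48, with 5 of 6 genes above, and around HOXC 0.012, beside 0.17, with 3 of 4 above. Of the 40 flanking rows, 3 were called higher and 9 lower by edgeR around HOXA, 4 and 7 around HOXB, 3 and 3 around HOXC, and 7 and 3 around HOXD. Single flanking rows lay far from these medians. Their log2 fold changes ran from -1.16 to 0.87 around HOXA and from -0.44 to 3.16 around HOXB. Around HOXC they ran from -0.54 to 10.09, and around HOXD from -1.27 to 2.71. No test of members against flanking rows was made, and no source used here describes the row order.

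Single rows beside the clusters went both ways. On the anterior side of HOXA, the next tested row, ENSG00000005020, had an edgeR log2 fold change of -0.25 ± 0.076 (adjusted p = 0.00825). The next tested row after HOXA13, ENSG00000106049, had -0.27 ± 0.078 (adjusted p = 0.00624). Both neighbours of HOXA were thus lower in the CAG line, where the cluster's called genes were higher. On the anterior side of HOXB, the next tested row, ENSG00000141293, stood at 2.24 ± 0.405 CPM (SD, n = 2) in PGK against 4.40 ± 0.410 CPM (SD, n = 3) in CAG and was called higher (1.01 ± 0.34, adjusted p = 0.0192 by edgeR). The row after HOXB13 had -0.17 ± 0.35 (adjusted p = 0.735). Next to HOXC13, the preceding tested row was called lower like HOXC13 itself (-0.54 ± 0.19, adjusted p = 0.0242). The next tested row on the other side of HOXC, ENSG00000123415, had 0.0081 ± 0.094 (adjusted p = 0.955). The rows next to HOXD, before HOXD13 and after HOXD1, had 0.22 ± 0.44 and -0.11 ± 0.079 and were not called.

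**Figure D4:**
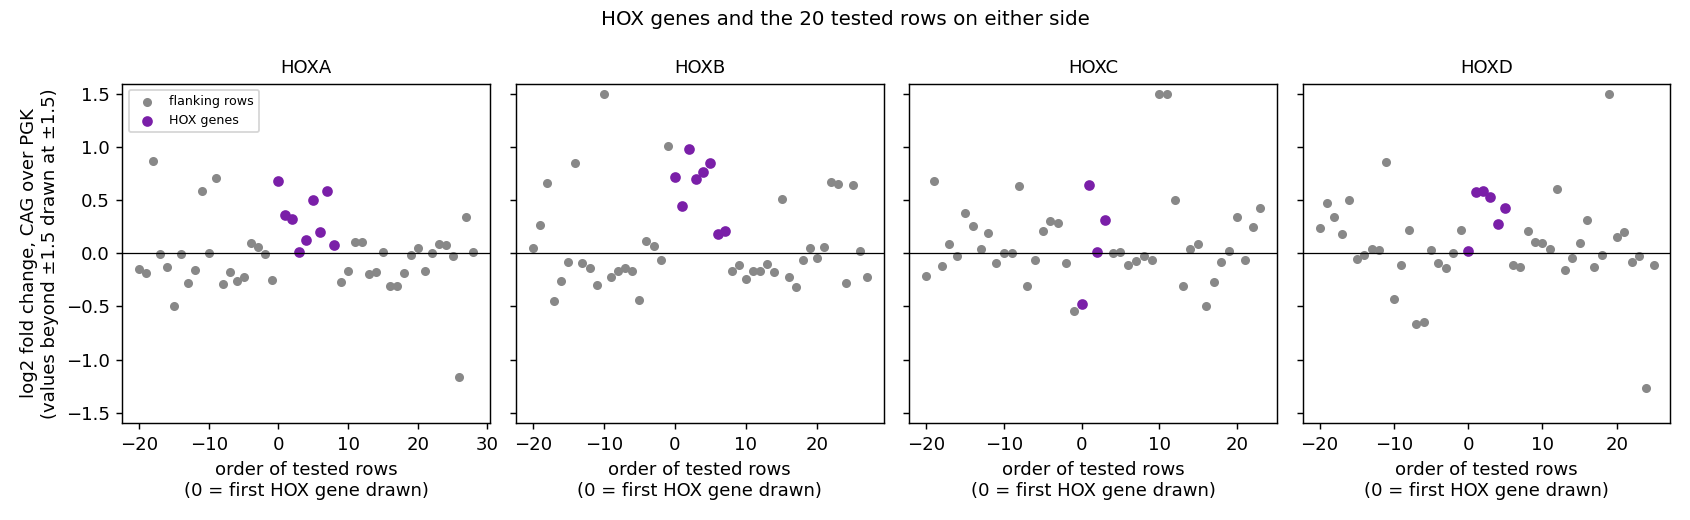
The log2 fold change of CAG over PGK for 27 tested HOX genes, by cluster, and for the 20 tested rows before and after each cluster, in row order. The HOXB genes lie above most of their flanking rows, whose median was -0.097, and values beyond 1.5 in size are drawn at that limit.

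The clusters also encode microRNAs, small RNAs that pair with messenger RNAs through their seed, bases 2 to 8, and the family of miR-196 is known to act on HOX messages. Their own transcription was not measured here. They are shown because they lie between or within members whose levels are given above, and because loci in 3 clusters share a seed. Sequences and positions are from RefSeq (GRCh38.p14), 5′ to 3′, with the seed in capitals.
hsa-miR-196b-5p from MIR196B, chr7:27169528-27169549, minus strand: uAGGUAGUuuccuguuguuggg
hsa-miR-196a-5p from MIR196A1, chr17:48632532-48632553, minus strand: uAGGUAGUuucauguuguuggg
hsa-miR-196a-5p from MIR196A2, chr12:53991762-53991783, plus strand: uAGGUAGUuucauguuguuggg
hsa-miR-10a-5p from MIR10A, chr17:48579904-48579926, minus strand: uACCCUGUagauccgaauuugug
MIR196B lies between HOXA9 and HOXA10, MIR196A1 between HOXB9 and HOXB13, and MIR196A2 between HOXC10 and HOXC9. The pair miR-196a-5p and miR-196b-5p differs by A12C, counted from the 5′ end of miR-196a-5p, and the seed is the same. Among 2370 mature microRNA names in the table, only these 2 carry that seed. MIR10A lies within HOXB3, which rose 1.36-fold in the CAG line. The genes on either side of the miR-196 loci included HOXA9, which rose, and HOXB9, HOXB13, HOXA10 and HOXC10, which did not pass the test.

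Promoter sequences of 300 bases around the RefSeq start were matched by symbol for 20 of the 39 genes. The letters CCAAT, a common promoter element, occurred on either strand in 17 of these 20 promoters (85%), against 35.7% of 27305 promoters of that length. HOXC4 and HOXC5 share 1 promoter among the 17. HOXA11, HOXD8 and HOXD11 were the 3 without it. The letters TATAAA occurred on either strand in 4 of the 20 (20.0%), against 12.0%. TGATNNAT, a motif bound by HOX proteins with PBX partners, occurred in 3 (15%), against 7.6%, namely in HOXA2, HOXB1 and HOXD11. The median number of CG pairs was 22.5 in HOX promoters and 14 in all, at median GC contents of 58.0% and 58.3%. These shares are descriptions. Apart from HOXB1, HOXC4 and HOXC5, the 20 genes are all from HOXA and HOXD, so the shares say little about HOXB and HOXC. HOXB1 was not tested, so none of the tested HOXB genes is among the 20.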

How the data were processed

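PRO-seq libraries of 5 samples were analysed from 1 deposited table of raw counts per Ensembl gene identifier. The submitters' processing notes name featureCounts 2.0.3, HISAT2 2.2.1, Bowtie2 2.5.1, fastp 0.23.2, UMI-tools and cutadapt, and the build hg19. Their roles, the annotation and the strand setting were not given in the sources used here. All 5 columns were matched to samples by description. The 18 rows of 20019 without an identifier were left out.

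Genes kept by filterByExpr (minimum count 10, minimum total 15) were scaled by TMM and tested with edgeR 4.0.16 (R 4.3.3), CAG over PGK with no covariate. DESeq2 1.42.0 was an alternative. A standard error is the absolute log2 fold change divided by the root of F. The test was tried on simulated counts. The members and lists were chosen with earlier results of these data known. Of the 39 members 38 are named, and 1 is not reported here by itself but enters counts, medians and sums; of the other genes, only rows beside or within the clusters. Lists of cofactors, Polycomb, trithorax, boundary, retinoic acid, CDX, EVX and flanking genes and of cell type markers were not analysed, because the RefSeq table (GRCh38.p14) paired 0 genes with Ensembl identifiers. Replicate numbers were not taken to pair libraries: their deviations from the line means correlated at 0.038 and -0.068.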

Additional observations from a re-analysis of the deposited data

How the results depend on the processing

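All alternatives were fixed with those earlier results known. The count of 18 called HOX genes stayed at 18 (17 higher, 1 lower) with DESeq2 size factors, upper-quartile factors, no filter and at least 1 CPM in every library, was 12 by the DESeq2 test, and was 14 to 18 with 1 library left out; the count over all genes was then 4754 to 5689. A lone PGK library was taken to vary as the CAG libraries do. Of all tested genes, 43.4% were called with DESeq2 size factors, 42.5% with upper-quartile factors and 42.1% with at least 1 CPM in every library. Without the filter 32 HOX genes were tested, and 34.8% of 17286 genes were called. With the replicate number as a block, 18 HOX genes (17 higher, 1 lower) and 4667 of all genes (34.8%) were called. HOXA2 then lost its call (adjusted p = 0.0553 by edgeR) and HOXB9 gained one (0.0409). Only CAG has a replicate 3, so in the blocked fit that library adds nothing to the line difference. Its values lay close to those without CAG replicate 3, as in HOXA11 (log2 fold change 0.69 and 0.68). These 2 alternatives are therefore not separate checks. How many of all tested genes kept their call under every alternative was not counted, so the next count has no share beside it. Of the 17 HOX genes called higher, 11 passed under all 11 alternatives: HOXA3, HOXA11, HOXB3, HOXB5, HOXB6, HOXB7, HOXB8, HOXC4, HOXD3, HOXD10 and HOXD11.

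Signs turned only in genes that were not called, and only with 1 library left out. The log2 fold change then ran from -0.11 to 0.21 in HOXA6, -0.17 to 1.06 in HOXA10, -0.022 to 0.49 in HOXB9, -0.17 to 0.35 in HOXC10 and -0.0033 to 0.049 in HOXD13. The log2 ratio of the HOXC sum ran from 0.067 to 0.34. The number of HOX genes at 1 CPM or more was 28 or 29 in PGK and 29 in CAG. Genes with few counts, such as HOXA10 and HOXC10, had standard errors of 0.32 and 0.27 (log2) at this depth. The alternatives for the gene lists were not run, since the lists could not be matched.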
